A study of Oryza sativa Japonica Group with 74 samples.

Results

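Wild-type rice (Oryza sativa Japonica, cultivar Nipponbare) under long days was compared with wild-type rice under short days at ZT2, which is 2 h after the lights came on. The long-day plants (LD) had 14 h of light and 10 h of dark, and the short-day plants (SD) had 10 h of light and 14 h of dark. The comparison rests on 4 of the 74 libraries of the series: replicates 1 and 2 of LD, against replicates 1 and 2 of SD. Every library is labelled as total RNA of whole plants 21 days old, so leaf, stem, root and meristem may enter together. Of the listed markers, the meristem gene OSH1 and the root gene Lsi2 were not detected in the compared libraries. Fewer cells of a type and less RNA per cell cannot be told apart. No mutation or agent was applied to either group. The submitters' growth text, written for flowering-time plants, gives germination at 28 °C for 3 days. Nothing in the labels says whether the replicates were separate plants, pools or one culture, so the p-values measure only a spread between libraries, which may be technical. That spread was estimated over 57 libraries in 25 groups, other times and mutants included, and not from the 4 compared libraries alone. The other 17 libraries, doubted by an earlier analysis of these data, were left out because they would widen it. The LD libraries held 35559934 and 33432608 counts, and the SD libraries held 32699378 and 38147466.

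Rice flowers earlier in short days than in long days. The leaf makes florigen, the mobile flowering protein encoded by genes such as Hd3a, and whether it does so depends on how regulators such as Hd1 act under the day length seen by the phytochromes and by the circadian clock. The same clock and light signals set the daily course of chlorophyll synthesis, starch turnover and many hormone and stress genes. At ZT2 both groups are in the light but differ in how long the preceding night was.

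The comparison leaves out replicate 3 of both groups, because the libraries labelled replicate 3 did not separate by day length. Distances were taken as the root mean square difference in log2 CPM (CPM, counts scaled to a common library total) over the 3000 most variable genes. LD replicates 1 and 2 lay 1.38 apart and SD replicates 1 and 2 lay 1.23 apart, while LD and SD libraries of these numbers lay 1.91 to 2.08 apart. The library labelled SD replicate 3 lay 1.36 and 1.41 from LD replicates 1 and 2, 1.96 and 1.97 from SD replicates 1 and 2, and 1.21 from the library labelled LD replicate 3. The replicate 3 libraries still differed from each other by more than sampling noise (chi-square per degree of freedom 2.97), though by less than LD replicates 1 and 2 (9.47) or SD replicates 1 and 2 (11.3). Of the wild-type group means, the nearest to the library labelled SD replicate 3 was LD at ZT2, at 1.21, against 1.86 for its own group. Among the genes called below, LD replicate 3 lay nearer the LD mean in 90.1% and the library labelled SD replicate 3 did so in 88.9%. The values of both replicate 3 libraries are given beside the main genes, and the tests were also run with them.

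**Figure D1:**
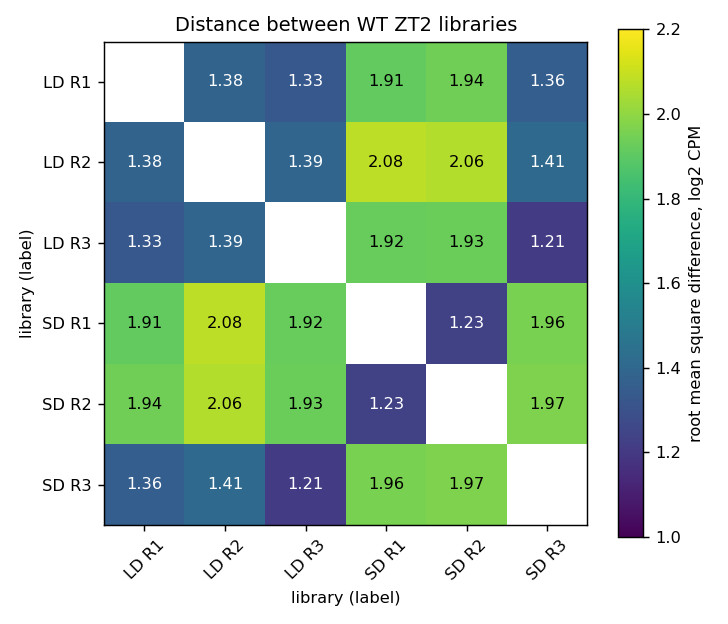
Root mean square difference in log2 CPM between each pair of the 6 wild-type ZT2 libraries, over the 3000 most variable genes; darker cells are closer pairs. SD R3 is close to the 3 LD libraries (1.21 to 1.41) and far from SD R1 and SD R2 (1.96 and 1.97).

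Day length went with a broad difference in the ZT2 transcriptome. Of 28905 genes tested, 8636 (29.9%) passed an adjusted p of 0.05: 4148 (14.4%) were higher in LD and 4488 (15.5%) were lower. Most of these differences were small, with a median of 1.72-fold over the called genes. A change of at least 2-fold was called in 3152 genes (10.9%), of which 1333 (4.61%) were higher in LD and 1819 (6.29%) were lower. The 2 LD and 2 SD values did not overlap in 99.8% of called genes, but they did not overlap in 63.8% of all tested genes either, so separation of 4 values is common here. With both replicate 3 libraries added, 5420 genes were called, 5329 of them among the 8636 and all 5329 in the same direction. With only LD replicate 3 added, 9508 were called. With all 74 libraries of the series under their labels, 772 were called, 771 of them among the 8636.

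**Figure D2:**
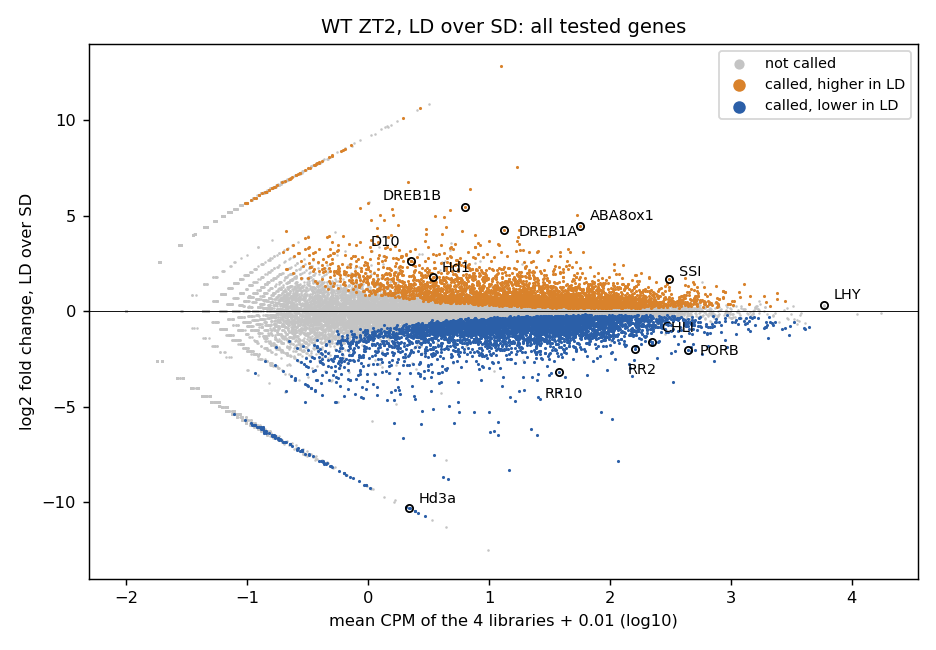
Log2 fold change (LD over SD) of each tested gene against its mean CPM over the 4 libraries (log10 scale). Orange points are called higher in LD and blue points lower; the straight outer bands are genes at 0 in one group, Hd3a among them, whose fitted fold change depends on the prior count.

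The florigen gene Hd3a was expressed in SD and not detected in LD. Hd3a (Os06g0157700) had 0 and 0 CPM in LD, against 4.34 and 4.36 CPM in SD. No LD count stood against 248 SD counts, and a floor of 3 counts over the group (0.0526 CPM) puts LD at least 82.6-fold lower (adjusted p = 5.11e-06). Both SD values thus lay above both LD values. LD replicate 3 had 0.0694 CPM, and the library labelled SD replicate 3 had 0 CPM. The call held without each of the 4 libraries in turn and with both replicate 3 libraries (adjusted p = 0.000824).

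Upstream of florigen, Hd1 (Os06g0275000) rose most in LD among the flowering genes tested from the lists. Hd1 is a CONSTANS-like regulator that promotes flowering in short days and represses it in long days. It had 5.36 and 5.16 CPM in LD, against 1.71 and 1.38 CPM in SD (log2 fold change 1.78 ± 0.37 SE, adjusted p = 0.000219). The fold was 3.44, and replicate 3 had 5.38 CPM in LD and 4.70 CPM in the library labelled SD. Ehd2 (Os10g0419200), a zinc-finger activator upstream of florigen, had 0.785 and 1.19 CPM in LD, against 3.02 and 2.15 CPM in SD (log2 fold change -1.37 ± 0.29 SE, adjusted p = 0.000289). The LD and SD values of both genes did not overlap, and both calls held without each of the 4 libraries in turn. With both replicate 3 libraries added, Hd1 kept a log2 fold change of 1.04 (adjusted p = 0.0143) and Ehd2 one of -1.01 (adjusted p = 0.00717).

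Over the flowering list, 2 of 11 tested members were higher in LD, 3 were lower and 6 did not pass. The shares over all tested genes were 14.4% higher and 15.5% lower. Ehd1, Ghd7, MADS51 and COL4 were dropped from this list, since their symbols did not match the RefSeq gene table. The list's median log2 fold change was 0.09, and that of all tested genes was 0. The third lower member was MADS14 (Os03g0752800), an AP1-like gene that acts in the meristem after florigen arrives, with 0.137 and 0.397 CPM in LD, against 1.36 and 1.06 CPM in SD (log2 fold change -2.17 ± 0.72 SE, adjusted p = 0.0191). That call was lost without LD replicate 1 (adjusted p = 0.185) and without SD replicate 1 (0.0935), and with both replicate 3 libraries (0.110), and its log2 fold change was -1.58 without LD replicate 1 and -3.1 without LD replicate 2. Ehd4, another activator, was 1.21-fold higher in LD (127.9 and 140.9 CPM in LD, against 108.5 and 113.6 CPM in SD, adjusted p = 0.0118), a call lost without LD replicate 2 (0.197), without SD replicate 1 (0.10) and with both replicate 3 libraries (0.138). The floral regulators MADS50, MADS56 and MADS18 and the repressor subunit DTH8 did not pass (adjusted p = 0.0793, 0.487, 0.745 and 0.284). Ehd3 missed narrowly, with 13.7 and 14.8 CPM in LD, against 18.4 and 16.6 CPM in SD (adjusted p = 0.0586). MADS15 was at most 0.137 CPM in the 4 libraries.

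Of 8 tested clock genes, 1 was higher in LD, 0 were lower and 7 did not pass, beside 14.4% higher and 15.5% lower over all tested genes. PRR59, FKF1, ZTL1, ZTL2, ELF3-2 and ELF4a were dropped from the clock list, since their symbols did not match either. The one called was TOC1 (Os02g0618200), the pseudo-response regulator of the evening, with 12.9 and 14.7 CPM in LD, against 7.36 and 6.15 CPM in SD (log2 fold change 1.04 ± 0.26 SE, adjusted p = 0.00208). Its call missed the threshold without SD replicate 2 (adjusted p = 0.0516). LHY, the morning MYB factor and the most abundant of the clock genes, had 6725 and 6578 CPM in LD, against 5382 and 4991 CPM in SD (adjusted p = 0.150). GI, the large evening protein gigantea, had 276.4 and 307.7 CPM in LD, against 191.9 and 177.5 CPM in SD (adjusted p = 0.0707). PRR37 had 88.1 and 88.2 CPM in LD, against 67.2 and 67.2 CPM in SD (adjusted p = 0.349). In each of LHY, GI and PRR37 both LD values exceeded both SD values, and a fit of the 4 libraries alone called all of them (adjusted p = 0.00962, 0.000885 and 0.00551). These are steeply changing transcripts: between ZT24 and ZT6 in wild type, averaged over LD and SD, LHY changed by -2.08 log2 units, GI by 8.39 and PRR37 by 7.31. The morning pseudo-response regulators PRR73 (640.7 and 648.2 CPM in LD, against 681.8 and 688.2 CPM in SD) and PRR95 (172.3 and 168.2 CPM in LD, against 181.4 and 172.8 CPM in SD) gave adjusted p = 0.889 and 0.925. Of the evening complex, the night-time repressor of the clock that this series is about, ELF3-1 had 138.0 and 136.0 CPM in LD, against 131.4 and 128.0 CPM in SD (adjusted p = 0.790). LUX, its DNA-binding subunit, was near 0 in all 4, with 0 and 0.144 CPM in LD, against 0.233 and 0.128 CPM in SD.

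**Figure D3:**
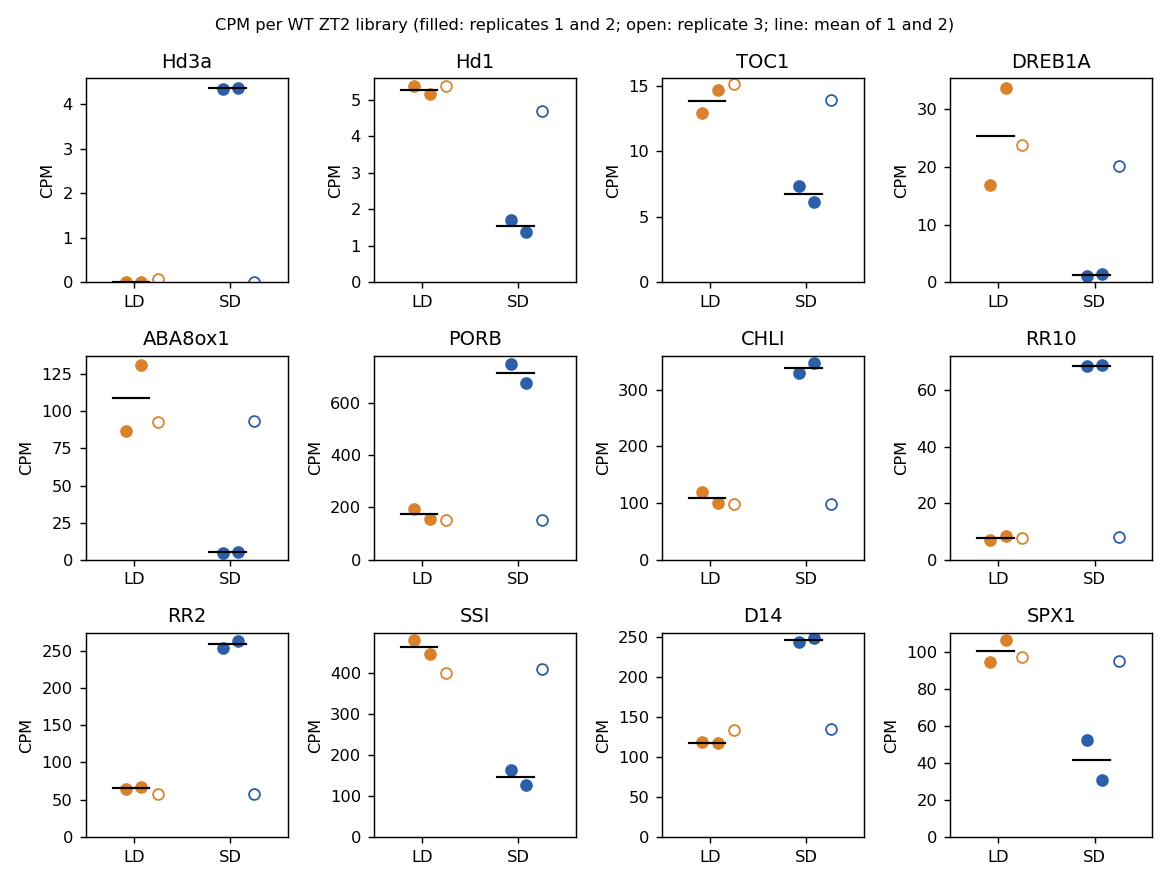
CPM of 12 genes in each wild-type ZT2 library, LD left and SD right; filled circles are replicates 1 and 2, open circles replicate 3, and the line is the mean of replicates 1 and 2. In every panel the open SD circle lies nearer the LD than the SD filled circles.

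Genes of chlorophyll synthesis were lower in LD at ZT2. The pathway runs from glutamyl-tRNA reductase (HEMA1), which opens it, through magnesium chelatase (CHLI, CHLD and CHLH) to protochlorophyllide oxidoreductase, the step that needs light. Of 9 genes tested from the list, 6 were lower in LD, 0 were higher and 3 did not pass, beside 15.5% lower over all tested genes. The list's median log2 fold change was -0.80. PORB (Os10g0496900), the light-dependent oxidoreductase, had 195.7 and 155.5 CPM in LD, against 751.8 and 677.4 CPM in SD, which is 4.07-fold lower in LD (log2 fold change -2.02 ± 0.19 SE, adjusted p = 1.62e-10). The chelatase subunits CHLI (119.1 and 100.1 CPM in LD, against 329.2 and 347.4 CPM in SD) and CHLD (55.6 and 55.5 CPM in LD, against 133.6 and 145.1 CPM in SD) were 3.09-fold and 2.51-fold lower (adjusted p = 1.92e-09 and 1.59e-09). Both SD values lay far above both LD values in each of these genes. HEMA1 had 405.8 and 385.7 CPM in LD, against 858.7 and 906.8 CPM in SD (log2 fold change -1.16 ± 0.20 SE, adjusted p = 1.64e-05). These 4 calls held without each of the 4 libraries and with both replicate 3 libraries, where all 6 of the list's lower calls remained. The largest subunit gene, CHLH, had 1476 and 1402 CPM in LD, against 2525 and 2474 CPM in SD (adjusted p = 0.00873), a call lost without LD replicate 2 (0.0717). PORA, the other listed oxidoreductase, had 110.6 and 94.5 CPM in LD, against 82.2 and 125.5 CPM in SD, and overlapped.

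Breakdown of chlorophyll went the other way in 2 of 3 genes tested from its list, beside 14.4% higher over all tested genes. SGR (Os09g0532000), the stay-green magnesium dechelatase, had 184.9 and 188.1 CPM in LD, against 101.1 and 61.7 CPM in SD (log2 fold change 1.2 ± 0.31 SE, adjusted p = 0.00322). NOL, a chlorophyll b reductase, was 2.13-fold higher in LD (adjusted p = 0.00926). The SGR call was lost without SD replicate 2 (0.108), that of NOL without SD replicate 2 (0.136) and without LD replicate 2 (0.0797), and both with the replicate 3 libraries (0.157 and 0.0967). The 2 light-harvesting genes tested did not pass, and the rest of that list was not matched. CAB1R had 3421 and 3074 CPM in LD, against 5185 and 4660 CPM in SD (adjusted p = 0.269). CAB2R had 3225 and 2670 CPM in LD, against 4384 and 3811 CPM in SD (adjusted p = 0.272). Rubisco activase (RCA), the one Calvin cycle gene of the list that was matched and tested, had 17363 and 16208 CPM in LD. It had 19403 and 16552 CPM in SD, and overlapped. Both light-harvesting genes had LD values below their SD values, and the fit of the 4 libraries alone called both lower (adjusted p = 0.00180 and 0.0130).

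The light receptors were modestly lower in LD. PHYB (Os03g0309200), the red-light receptor phytochrome B, had 55.2 and 54.3 CPM in LD, against 84.2 and 83.8 CPM in SD (log2 fold change -0.62 ± 0.11 SE, adjusted p = 1.57e-05), and the call held in each fit without 1 library and with both replicate 3 libraries (adjusted p = 0.00102). PHYC, with which PHYB pairs, was 1.3-fold lower (adjusted p = 0.00424, but 0.0583 without SD replicate 2). PHYA, the far-red receptor, was 1.18-fold lower (adjusted p = 0.0315), and its call was lost without LD replicate 1 (0.0884), LD replicate 2 (0.199) and SD replicate 2 (0.400). The blue-light receptor PHOT2 was not called (adjusted p = 1.00), which left 3 of 4 photoreceptor genes lower and 0 higher. Of the photoprotection and chloroplast regulators, 3 of 4 were lower in LD and 0 higher. Beside both lists, the share lower over all tested genes was 15.5%. The chloroplast regulator GLK1 was 1.56-fold lower (346.1 and 318.9 CPM in LD, against 549.0 and 486.7 CPM in SD, adjusted p = 0.00376), a call that just missed without LD replicate 2 (0.0519) and without SD replicate 1 (0.0518).

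Cytokinin genes had the lowest median of the 30 gene lists. Cytokinin promotes cell division and greening, and the type-A response regulators are its rapid transcriptional targets, which feed back to damp the signal. Of 8 listed cytokinin genes, 7 were lower in LD, 0 were higher and 1 did not pass, beside 15.5% lower over all tested genes. Their median log2 fold change in this list was -1.82. RR10 (Os12g0139400) had 6.79 and 8.26 CPM in LD, against 68.5 and 69.1 CPM in SD, which is 9.15-fold lower in LD (log2 fold change -3.19 ± 0.24 SE, adjusted p = 9.50e-13). RR9 (Os11g0143300) had 6.25 and 10.4 CPM in LD, against 44.2 and 45.8 CPM in SD (log2 fold change -2.44 ± 0.25 SE). RR9 and RR10 are near-identical copies, so reads may have been divided between them. RR2 (Os02g0557800), the most abundant of the type-A genes listed, had 64.3 and 66.8 CPM in LD, against 254.0 and 263.3 CPM in SD (log2 fold change -1.98 ± 0.16 SE, adjusted p = 6.29e-12). RR6 and RR4 were 4.82-fold and 3.18-fold lower in LD (adjusted p = 1.06e-06 and 7.51e-10). RR4 had 27.1 and 23.99 CPM in LD, against 81.1 and 81.6 CPM in SD. All 5 calls held without each of the 4 libraries, and all 7 of the list held with both replicate 3 libraries. CKX2, a cytokinin oxidase, was the member that did not pass (adjusted p = 1.00).

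Genes of growth and water movement were mostly lower in LD where they passed. Of 4 expansins, which loosen the cell wall during growth, 3 were lower and 0 higher. EXPA4 (Os05g0477600) had 15.2 and 14.4 CPM in LD, against 42.4 and 45.6 CPM in SD, and EXPA2 (Os01g0823100) had 36.7 and 36.9 CPM in LD, against 100.3 and 98.1 CPM in SD (log2 fold changes -1.57 ± 0.30 SE and -1.43 ± 0.25 SE, adjusted p = 6.96e-05 and 2.05e-05). EXPB3 was 1.64-fold lower (adjusted p = 0.0249), and leaving out any one of the 4 libraries lost that call (adjusted p from 0.0831 to 0.114). Among 12 aquaporins, the membrane water channels, 4 were lower, 1 was higher and 7 did not pass. For both lists, the shares over all tested genes were 15.5% lower and 14.4% higher. TIP2;2 (Os06g0336200), a channel of the vacuole membrane, had 61.1 and 58.2 CPM in LD, against 223.7 and 192.3 CPM in SD, which is 3.48-fold lower in LD (adjusted p = 2.66e-06). PIP2;6, a plasma-membrane channel, was 1.80-fold lower (adjusted p = 0.00231), whereas PIP1;3 was 1.80-fold higher (231.0 and 220.8 CPM in LD, against 136.4 and 115.0 CPM in SD, adjusted p = 0.000461). The PIP1;3 call was lost with both replicate 3 libraries (0.126), and those of EXPA4, EXPA2, TIP2;2 and PIP2;6 were not.

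Markers of dividing cells moved with these groups. Of 6 such markers 4 were lower in LD and 0 higher, beside 15.5% lower over all tested genes. The summed level of these markers was 28.3 and 26.9 CPM in LD, against 41.2 and 42.8 CPM in SD. PCNA (Os02g0805200), the sliding clamp of DNA replication, had 6.90 and 7.36 CPM in LD, against 13.7 and 12.6 CPM in SD (log2 fold change -0.88 ± 0.19 SE, adjusted p = 0.000364). The mitotic kinase CDKB2;1 had 0.137 and 0.325 CPM in LD, against 1.67 and 1.35 CPM in SD (log2 fold change -2.69, or -3.42 without LD replicate 2, adjusted p = 0.000419). CDKA1, the general cell-cycle kinase, was 1.31-fold lower (adjusted p = 0.00350, but 0.0731 without LD replicate 2 and 0.104 without SD replicate 2). CYCB2;1 passed at 0.0484 and was lost without LD replicate 1 (0.132), LD replicate 2 (0.188) and SD replicate 1 (0.385). The meristem marker OSH1 was at 0 in all 4 libraries. Root markers gave 1 lower of 2: Lsi1, the silicon channel, had 11.8 and 12.0 CPM in LD, against 18.2 and 18.1 CPM in SD (adjusted p = 0.0343, lost without any one library, at 0.107 to 0.132), and Lsi2 was at 0. The 2 reference genes often used to scale measurements were lower as well: eEF1A, a gene with several near-identical copies, had 287.8 and 268.3 CPM in LD, against 613.6 and 621.4 CPM in SD (adjusted p = 9.27e-12), and actin ACT1 had 112.1 and 107.5 CPM in LD, against 150.0 and 151.4 CPM in SD (adjusted p = 0.000906). The part of these markers in the cytokinin and expansin results was not tested.

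**Figure D4:**
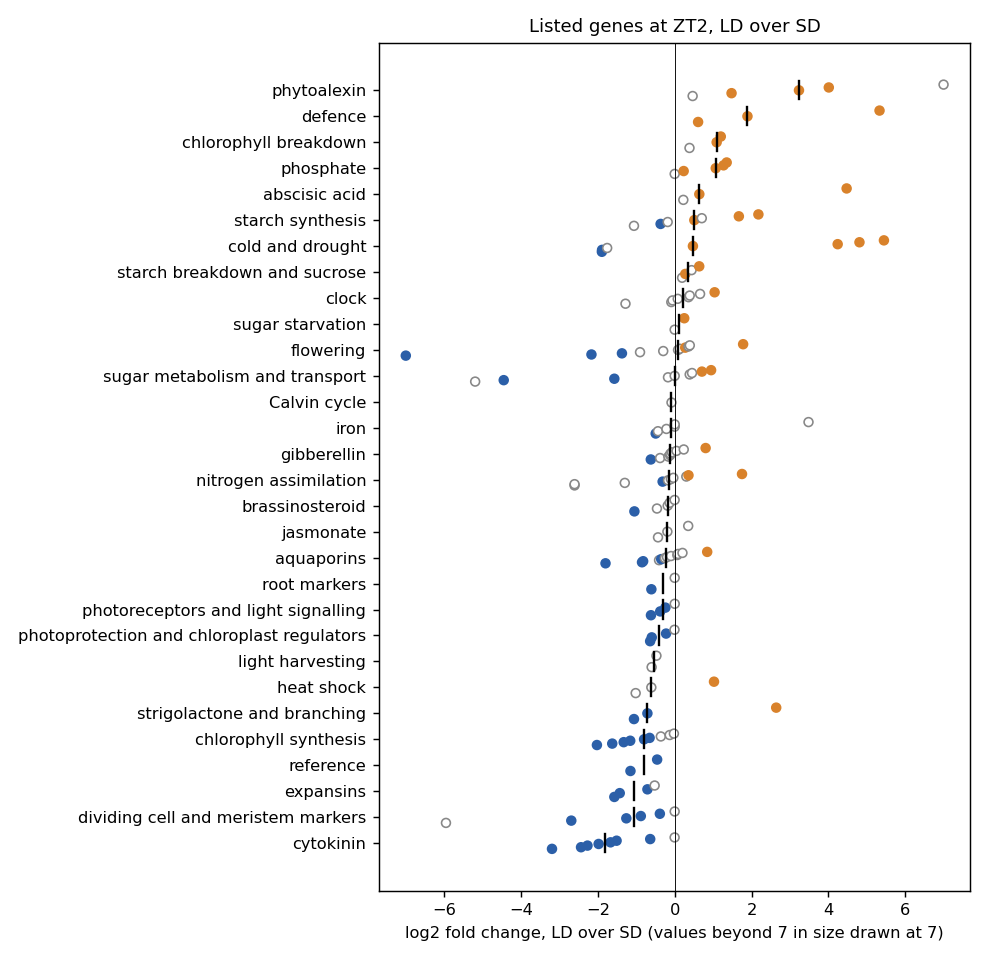
Log2 fold change (LD over SD) of every tested member of the 30 gene lists, lists ordered by their median (bar). Orange members are called higher in LD, blue members lower, open members not called; the cytokinin list is lowest, and values beyond 7 in size are drawn at 7.

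Among the largest rises in LD of listed genes were those of the DREB1 family and of an abscisic acid enzyme. DREB1 factors switch on cold-response genes and are named after their relatives in Arabidopsis, where the clock also drives them. DREB1A (Os09g0522200) had 16.94 and 33.7 CPM in LD, against 1.16 and 1.47 CPM in SD (18.9-fold, log2 fold change 4.24 ± 0.40 SE, adjusted p = 1.03e-10). DREB1B (Os09g0522000) had 7.55 and 17.3 CPM in LD, against 0.116 and 0.416 CPM in SD (log2 fold change 5.45 ± 0.52 SE, adjusted p = 4.33e-11). DREB1C (Os06g0127100) had 1.13 and 4.04 CPM in LD, against 0 and 0.160 CPM in SD (adjusted p = 5.49e-06). Its log2 fold change of 4.81 was 5.48 without LD replicate 1, 3.63 without LD replicate 2 and 3.97 without SD replicate 1, while without SD replicate 2 the SD group was at 0. That of DREB1B was 4.73 without LD replicate 2 and 6.69 without SD replicate 2, and all these calls held. Each of these genes stood well higher in LD replicate 2 than in LD replicate 1, and still every LD value lay above every SD value. Replicate 3 had 23.9 CPM of DREB1A in LD and 20.2 CPM in the library labelled SD. With both replicate 3 libraries added, the log2 fold changes shrank to 1.7 for DREB1A, 1.57 for DREB1B and 1.59 for DREB1C (adjusted p = 0.00560, 0.0121 and 0.0151).

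ABA8ox1 (Os02g0703600), the abscisic acid 8'-hydroxylase that breaks the hormone down, had 86.6 and 131.3 CPM in LD, against 4.77 and 4.996 CPM in SD. That is 22.3-fold higher in LD (log2 fold change 4.48 ± 0.31 SE, adjusted p = 2.88e-13), with no overlap. Replicate 3 had 93.1 CPM in LD and 93.6 CPM in the library labelled SD, and with both added the log2 fold change was 1.56 (adjusted p = 0.0225). NCED3, an enzyme of abscisic acid synthesis, was 1.56-fold higher (adjusted p = 0.0396), but not without LD replicate 2 (0.310), SD replicate 1 (0.0948) or SD replicate 2 (0.189). Of 3 abscisic acid genes, 2 were thus higher and 0 lower, beside 14.4% higher and 15.5% lower over all tested genes. The drought genes LEA3 and SALT did not follow DREB1. LEA3 had 6.25 and 0.722 CPM in LD, against 10.7 and 15.5 CPM in SD (adjusted p = 0.00412, but 0.163 in the fit of the 4 libraries alone). SALT had 25.7 and 17.4 CPM in LD, against 97.0 and 63.7 CPM in SD (adjusted p = 0.00318). Both were lower in LD, and the calls were lost without LD replicate 2 (0.153 for LEA3 and 0.0601 for SALT) and, for LEA3, without SD replicate 2 (0.0684), while without LD replicate 1 its log2 fold change of -1.90 became -4.18. Of the 7 cold and drought genes 4 were higher in LD (the DREB1 genes and DREB2A), 2 lower and 1 (RAB16A, adjusted p = 0.0521) not called.

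Starch genes were higher in LD where they passed, with 1 exception. SSI (Os06g0160700), a soluble starch synthase, had 480.8 and 447.6 CPM in LD, against 164.7 and 127.2 CPM in SD, which is 3.18-fold (log2 fold change 1.67 ± 0.23 SE, adjusted p = 2.85e-07). ISA1, a debranching enzyme that shapes the starch granule, had 7.10 and 7.29 CPM in LD, against 2.17 and 1.09 CPM in SD (adjusted p = 2.41e-05). The branching enzyme BEI was 1.43-fold higher (305.4 and 310.9 CPM in LD, against 220.5 and 212.0 CPM in SD, adjusted p = 2.55e-06). With both replicate 3 libraries SSI and BEI stayed called (0.00972 and 0.00482), and ISA1 did not (0.113). SSIIb, another synthase, was 1.29-fold lower in LD (adjusted p = 0.0303), but leaving out any one library lost it (0.0647 to 0.184). In all, 3 of 7 synthesis genes were higher, 1 was lower and 3 did not pass. The shares over all tested genes were 14.4% higher and 15.5% lower. Of 4 genes of starch breakdown and sucrose transport, 2 were higher and 0 lower: DPE2, which handles the maltose released from starch at night, was 1.56-fold higher (632.7 and 654.7 CPM in LD, against 423.4 and 403.2 CPM in SD, adjusted p = 2.14e-07), and SUT2, a sucrose transporter, was 1.21-fold higher (adjusted p = 0.0401, lost without any one library, at 0.0632 to 0.258).

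Sugar genes outside starch were split, with 2 of 9 higher, 2 lower and 5 not called. These counts stand beside 14.4% higher and 15.5% lower over all tested genes. The sucrose transporter SWEET14 had 40.4 and 46.8 CPM in LD, against 22.7 and 22.5 CPM in SD (adjusted p = 0.00179), and this call held without each library. SUS1, a sucrose synthase that cleaves sucrose, had 48.4 and 36.9 CPM in LD, against 127.1 and 126.6 CPM in SD (adjusted p = 0.0179), but leaving out any one library lost it (0.0549 to 0.142). SWEET11 had 0.102 and 0 CPM in LD, against 0.698 and 1.67 CPM in SD (adjusted p = 0.00282), and was lost without LD replicate 2 (0.0503) and SD replicate 2 (0.0981), while without LD replicate 1 the LD group was at 0. TPP7, a trehalose phosphatase, had 68.0 and 125.1 CPM in LD, against 60.7 and 57.4 CPM in SD, and its call (adjusted p = 0.0205) rested on LD replicate 2, without which the adjusted p was 0.676. It was also lost without SD replicate 1 (0.0674) and SD replicate 2 (0.121).

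Phosphate genes were higher in LD in 4 of 5 cases and lower in 0, beside 14.4% higher over all tested genes. SPX1 (Os06g0603600), a phosphate sensor induced by starvation, had 94.8 and 106.6 CPM in LD, against 52.7 and 31.1 CPM in SD (log2 fold change 1.27 ± 0.21 SE, adjusted p = 8.35e-06). The transporter PT8 (Os10g0444700) had 242.0 and 283.9 CPM in LD, against 151.2 and 99.8 CPM in SD (log2 fold change 1.07 ± 0.18 SE, adjusted p = 9.93e-06). Both genes spread more between the SD libraries than between the LD libraries, both held without each library in turn, and both held with the replicate 3 libraries (adjusted p = 0.0140 and 0.0253). The transporter PT2 had 1.71 and 3.36 CPM in LD, against 0.891 and 1.06 CPM in SD (adjusted p = 0.00404), lost without LD replicate 2 (0.238). PHR2, the central regulator of the phosphate response, was 1.18-fold higher (adjusted p = 0.00483), lost without LD replicate 1 (0.0554) and SD replicate 2 (0.0939). Neither PT2 nor PHR2 stayed called with both replicate 3 libraries (adjusted p = 0.130 and 0.0554).

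All 3 defence genes tested from the list were higher in LD, beside 14.4% of all tested genes. PBZ1 (Os12g0555500), a pathogenesis-related protein induced by probenazole, had 300.8 and 214.7 CPM in LD, against 73.7 and 65.0 CPM in SD (log2 fold change 1.89 ± 0.43 SE, adjusted p = 0.000799). NPR1, a regulator of salicylic acid responses, had 20.3 and 20.9 CPM in LD, against 13.9 and 13.1 CPM in SD (adjusted p = 0.000683). Both held without each library but not with both replicate 3 libraries (0.118 and 0.0935). The diterpenoid phytoalexins, antimicrobial compounds made on attack, gave 3 higher of 5 genes and 0 lower, with a median log2 fold change of 3.24. CPS2, which starts one branch, had 134.9 and 108.6 CPM in LD, against 46.2 and 41.2 CPM in SD (adjusted p = 0.00692, lost without LD replicate 1 at 0.0554 and SD replicate 2 at 0.0722). CPS4, which starts the momilactone branch, had 36.0 and 28.9 CPM in LD, against 3.80 and 3.14 CPM in SD (adjusted p = 0.0300), and KSL7 had 17.2 and 11.6 CPM in LD, against 0.698 and 1.06 CPM in SD (adjusted p = 0.0415). Both were lost without any one library (0.0622 to 0.166 for CPS4, 0.0695 to 0.170 for KSL7). KSL4, next in the momilactone branch, had 4.68 and 2.24 CPM in LD, against 0 and 0 CPM in SD, at least 66.4-fold higher by the 3-count floor over the group, yet its adjusted p was 0.111. The third defence gene, MAS, a momilactone synthase, had 14.0 and 4.51 CPM in LD, against 0.194 and 0.256 CPM in SD (adjusted p = 0.0208), lost without LD replicate 1 (0.200), SD replicate 1 (0.103) and SD replicate 2 (0.128). Each LD value of these genes was above each SD value, and the library labelled SD replicate 3 again stood with LD, at 286.7 CPM of PBZ1 and 45.8 CPM of CPS4.

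The strigolactone genes divided by role. Strigolactones hold back tiller buds: D10 acts in making the hormone, D14 is its receptor, and D3 is the F-box protein that passes the signal on. D10 (Os01g0746400) had 4.30 and 3.39 CPM in LD, against 0.736 and 0.512 CPM in SD, which is 6.25-fold higher in LD (log2 fold change 2.64 ± 0.56 SE, adjusted p = 0.000272). D14 (Os03g0203200) had 119.4 and 117.0 CPM in LD, against 244.1 and 248.7 CPM in SD (log2 fold change -1.06 ± 0.12 SE, adjusted p = 1.15e-08). D3 (Os06g0154200) had 39.5 and 36.5 CPM in LD, against 66.3 and 58.2 CPM in SD (log2 fold change -0.71 ± 0.09 SE, adjusted p = 2.78e-08). The synthesis gene was thus higher and both perception genes lower, without overlap, in every fit without 1 library. With both replicate 3 libraries D14 and D3 stayed called (0.000130 and 0.000172) and D10 did not (0.0965).

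Some of the largest changes at a level of at least 5 CPM belonged to genes outside the gene lists, whose symbols were not looked up. Os02g0677300 had 25.5 and 42.5 CPM in LD, against 0.233 and 0.128 CPM in SD (log2 fold change 7.57 ± 0.37 SE, adjusted p = 7.89e-19), and Os01g0186900 had 60.8 and 146.2 CPM in LD, against 3.22 and 3.04 CPM in SD (log2 fold change 5.05). In the opposite direction, Os08g0460000 had 0.0683 and 0.108 CPM in LD, against 26.3 and 32.1 CPM in SD (adjusted p = 0.00116), and Os02g0616100 had 1.502 and 0.505 CPM in LD, against 215.8 and 246.6 CPM in SD (adjusted p = 0.00352, or 0.0549 without LD replicate 2). LD lay wholly above SD in both rising genes and wholly below it in both falling ones. The rises shrank to log2 fold changes of 1.79 and 1.64 with both replicate 3 libraries, and that of Os01g0186900 to 4.28 without LD replicate 2. A further description of presence and absence gave 30 genes at 0 in both LD libraries and at least 1 CPM in both SD libraries, and 9 genes the other way round. Of the 30, the library labelled SD replicate 3 had 21 at 0 and LD replicate 3 had 18 at 0.

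The day-length difference at ZT2 was set beside those at ZT6 and at lights on, each from 2 LD and 2 SD libraries and none shared with ZT2. The other wild-type libraries labelled with these times were among the 17 left out. The lights-on libraries are labelled ZT24 and carry ZT00 as their column name in the tables, so whether they open or close the daily cycle is not settled, and they are called ZT24 here. The LD against SD effect differed between ZT2 and ZT24 in 8436 genes (29.2%) and between ZT2 and ZT6 in 1512 genes (5.23%). With both replicate 3 libraries of ZT2 added these counts were 7260 and 217, and with all 74 libraries 2246 and 0. At ZT24 itself 33.8% of tested genes differed between LD and SD, and at ZT6 19.8% did. Of the ZT2 calls, 2420 were also called in the same direction at ZT24, which is 28.0% of the ZT2 calls and 24.8% of the ZT24 calls, and 1671 were called in the opposite direction. With ZT6 the same direction held for 3669 genes, 42.5% of the ZT2 calls and 64.2% of the ZT6 calls, and the opposite for 66. The count of 1512 was sensitive to single libraries: it was 480 without LD replicate 2, 845 without SD replicate 1 and 879 without SD replicate 2.

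The size of the day-length difference changed with time in several gene groups. For RR10 the log2 fold change, LD over SD, was -0.07 at ZT24, -3.19 at ZT2 and -1.83 at ZT6, and ZT2 differed from both ZT24 (adjusted p = 9.08e-08) and ZT6 (0.0140). In the cytokinin list the effect at ZT2 differed from that at ZT24 in 6 of 8 genes. Of the chlorophyll synthesis genes 5 of 9 did so, among them CHLG, which was not called at ZT2. CHLI was at 0.08 at ZT24 (adjusted p = 0.793), -1.63 at ZT2 and -1.58 at ZT6, while CHLD was called higher in LD at ZT24 (0.38, adjusted p = 0.0312). HEMA1 (-1.11, -1.16 and -1.44), CHLH (-0.99, -0.80 and -1.21) and PORB (-0.56, -2.02 and -1.46) were called lower in LD at ZT24, ZT2 and ZT6 alike. The rises in DREB1A and ABA8ox1 were larger at ZT2 than at either other time: DREB1A was at -0.37, 4.24 and -1.05, and ABA8ox1 at 0.86, 4.48 and -0.73, at ZT24, ZT2 and ZT6 in this order, and both differed from both neighbours (adjusted p of the differences from 2.83e-08 to 4.47e-05). ABA8ox1 was also called higher in LD at ZT24 (adjusted p = 0.0325), and DREB1A was not (0.716). Expansin EXPA2 turned sign, with 1.63 at ZT24, -1.43 at ZT2 and -0.22 at ZT6. Starch synthase SSI and Hd1 were instead higher in LD at each of these times (1.58, 1.67 and 0.97 for SSI; 1.24, 1.78 and 1.76 for Hd1), and their ZT2 effect did not pass the test of a difference from either.

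**Figure D5:**
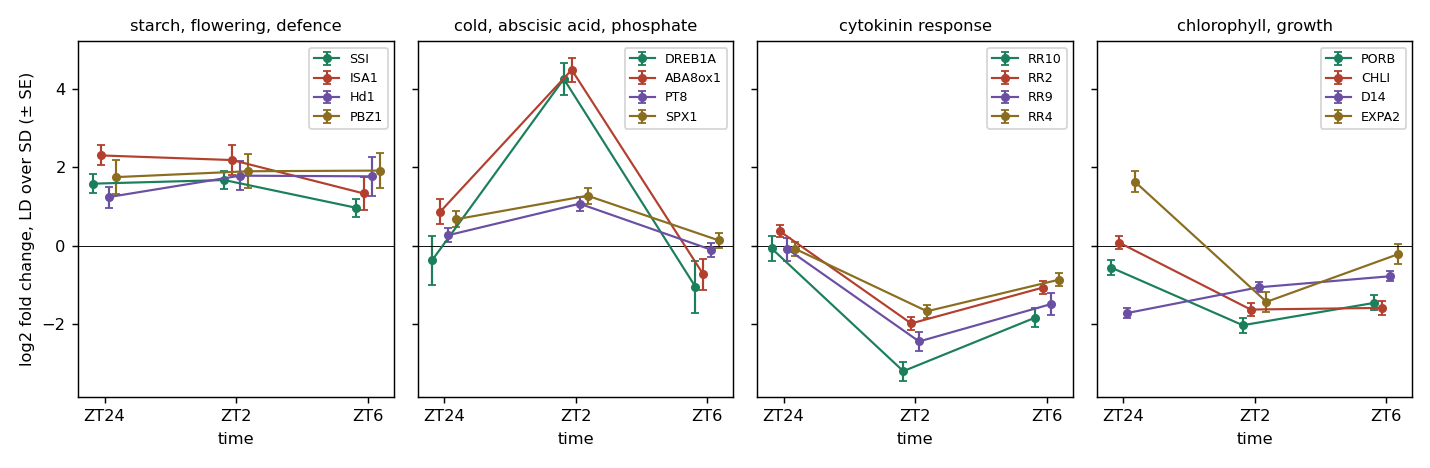
Log2 fold change (LD over SD, ± SE from the fit) of 16 genes at ZT24, ZT2 and ZT6, 2 LD and 2 SD libraries a time. DREB1A and ABA8ox1 stand highest at ZT2, and the 4 response regulators lie near 0 at ZT24 and are lowest at ZT2.

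The course of the called genes between lights on and ZT6 was described from the ZT24 and ZT6 libraries (LD and SD averaged), which the comparison did not use. Among all tested genes, 25.4% were called higher at ZT6 than at ZT24 and 25.5% lower. Of the 4148 genes higher in LD at ZT2, 23.0% rose and 40.8% fell between ZT24 and ZT6. Of the 4488 genes lower in LD, 45.9% rose and 21.4% fell. These are counts over genes that are not independent of each other. PORB was lower in LD and rose by 2.02 log2 units between ZT24 and ZT6, and Hd1 was higher in LD and fell by 2.56. D14 went otherwise: it was lower in LD and fell by 0.75.

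Over all the listed genes, 82 of 160 tested (51.2%) were called, 35 higher (21.9%) and 47 lower (29.4%), beside 29.9% of all tested genes. The lists hold genes chosen for known roles, from clock, flowering and light genes to nutrient, defence and reference genes. They were chosen with earlier results of these data known. Of the 82 called genes described under the naming rule, 41 stayed called without each of the 4 libraries, and 48 stayed called with both replicate 3 libraries.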

How the data were processed

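Messenger RNA libraries of whole rice plants were sequenced after RNeasy extraction and NEBNext Ultra II Directional preparation, per the labels' protocols. Per the submitters' processing notes, HISAT2 and StringTie were used with IRGSP-1.0; versions and the strand setting are not given in the sources used here. The deposited tables hold raw counts and TPM by the authors for 37849 genes; the TPM sum to 984576 to 997073 per library. 1 deposited column has no sample and was not used. Wild-type columns named ZT00 were matched to the samples labelled ZT24.

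The counts went into one quasi-likelihood fit (edgeR 4.0.16 under R 4.3.3) of 57 libraries with a mean for each of 25 groups, which left 32 residual degrees of freedom. Normalization was by TMM, whose factors spanned 0.789 to 1.23. Of the genes, filterByExpr dropped 8944 and retained 28905. The robust form of glmQLFit was used, contrasts were tested with glmQLFTest, and p-values were adjusted by Benjamini-Hochberg over every tested gene (threshold 0.05). All p-values in the text come from this fit unless another is named. The other 17 libraries were left out because an earlier analysis of these data doubted them. CPM use TMM-scaled totals, and library totals over the series spanned 25.7 M to 74.1 M. Floors cover counting error only. Each SE is the size of the log2 fold change divided by the square root of the quasi-likelihood F, so it includes the spread between libraries. Differences between times are interaction contrasts. Alternatives were RLE size factors, no filter, DESeq2 1.42.0, limma 3.58.1 on log2(TPM + 1) or log2(TPM + 0.1), other sets of libraries and a replicate block.

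The comparison's members and the gene lists were chosen with earlier results of these data known. Symbols were matched in a RefSeq gene table of another assembly by name and chromosome: 161 of 249 matched and 160 of these were tested, in 30 lists. Counts of listed genes in the text cover only the tested members, and unmatched members were dropped. The genes named are all matched clock and flowering genes and up to 5 called members of each other list by size. Members that did not pass are named where a count needs them (chosen after their values were seen). Also named are 2 rising and 2 falling genes outside the lists. Product families, promoter motifs and sequences were not used here, and 1 item is not reported here. The fit was checked on simulated data.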

Additional observations from a re-analysis of the deposited data

Results flagged for a closer look

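These genes are listed because their LD over SD effect at ZT2 differed from that at ZT24 or at ZT6 by the interaction contrast of edgeR's quasi-likelihood fit (Benjamini-Hochberg adjusted p under 0.05, 2 LD and 2 SD libraries at each time). Each value is the log2 fold change, LD over SD, at ZT2 minus that at the other time.

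Among the clock and flowering genes, the difference from ZT24 was 0.795 for LHY, 3.27 for PRR73, 2.47 for PRR95, 0.403 for Ehd4 and 1.46 for MADS18 (adjusted p from 3.44e-06 to 0.0192). From ZT6 it was 1.12 for TOC1 (adjusted p = 0.0381). Among the chlorophyll genes, the difference from ZT24 was -1.47 for PORB, -1.7 for CHLI, -1.7 for CHLD, 1.28 for SGR and 1.27 for NOL (adjusted p from 1.34e-08 to 0.029). Among the starch and sugar genes, the difference from ZT24 was -0.524 for SSIIb, 0.44 for SnRK1A, -2.86 for SUS1 and 0.899 for TPP7 (adjusted p from 0.00261 to 0.0475). From ZT6 it was 0.503 for DPE2 and 1.36 for TPP7 (adjusted p from 0.00981 to 0.0134).

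Among the cold, drought and abscisic acid genes, the difference from ZT24 was 8.34 for DREB1C, 4.61 for DREB1A, 3.42 for LEA3, 3.62 for ABA8ox1 and 1.95 for NCED3 (adjusted p from 8.5e-08 to 0.0052). The difference from ZT6 was 5.25 for DREB1B, 5.29 for DREB1A and 5.21 for ABA8ox1 (adjusted p from 2.83e-08 to 0.0311). Among the type-A response regulators, the difference from ZT24 was -3.12 for RR10, -2.35 for RR9, -2.46 for RR6, -2.35 for RR2 and -1.59 for RR4 (adjusted p from 4e-10 to 0.000267). From ZT6 it was -1.36 for RR10, -0.913 for RR2 and -0.802 for RR4 (adjusted p from 0.0117 to 0.0404). Among the expansins and aquaporins, the difference from ZT24 was -2.02 for EXPA4, -3.06 for EXPA2, -1.77 for EXPB3, 2.32 for PIP1;3 and 2.5 for PIP2;4 (adjusted p from 1.18e-08 to 0.000221). The difference from ZT6 was -1.21 for EXPA2 (adjusted p = 0.0395).

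Among the dividing cell markers and reference genes, the difference from ZT24 was -2.65 for CDKB2;1, -0.966 for PCNA, -1.14 for eEF1A and -0.944 for ACT1 (adjusted p from 2.14e-08 to 0.00937). From ZT6 it was -3.1 for CDKB2;1 and -0.516 for ACT1 (adjusted p from 0.0139 to 0.0363). Among the strigolactone, phosphate, gibberellin and defence genes, the difference from ZT24 was 0.656 for D14, 0.423 for D3, 0.804 for PT8, 0.601 for PHR2, 0.98 for EUI1 and 0.545 for NPR1 (adjusted p from 2.26e-06 to 0.0254). The difference from ZT6 was -0.553 for D3, 1.14 for SPX1, 1.17 for PT8 and 0.763 for NPR1 (adjusted p from 0.00324 to 0.0139). Among the genes outside the lists, the difference from ZT24 was 8.98 for Os02g0677300, 5.13 for Os01g0186900 and -11 for Os02g0616100 (adjusted p from 2.56e-07 to 0.00275). From ZT6 it was 9 for Os02g0677300 and 3.86 for Os01g0186900 (adjusted p from 4.58e-05 to 0.011).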

How the results depend on the processing

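The counts called at ZT2, called at least 2-fold, differing from ZT24 and differing from ZT6 were 8636, 3152, 8436 and 1512. With all 74 libraries under their labels they were 772, 347, 2246 and 0 with edgeR (at unadjusted p under 0.05, 4800 genes at ZT2 and 1114 for the difference from ZT6), and with both replicate 3 libraries of ZT2 added 5420, 1164, 7260 and 217. The 2-fold count was 1995 with limma on log2(TPM + 1), and the difference from ZT6 was 2536 with DESeq2, which called 9377 genes at ZT2. Leaving out 1 of the 4 libraries gave ranges of 5856 to 6674, 2459 to 2975, 6907 to 7203 and 480 to 1204. The fit of the 4 libraries alone called 8871 genes, 7630 of them among the 8636. The other settings moved these counts by less than 1.5 times. The split of calls was 5208 higher and 3888 lower with limma on log2(TPM + 1), and 5425 and 4160 on log2(TPM + 0.1), against 4148 and 4488, and 48 and 724 with all libraries. A replicate block within ZT2 called 8597 genes. It was not used as a pairing, since deviations of same-numbered LD and SD libraries correlated at 0.0542 over 28905 genes with 2 pairs. None of the 82 called named genes changed sign under any setting that gave a value, while PRR95, LUX and MADS15, not called, did under some. With all libraries 72 of the 82 called named genes lost their call, with both replicate 3 libraries 34, and without 1 library 20 to 33; the cause was not tested. A further 2 settings were chosen after seeing the data: dispersions estimated before the fit (9062 genes called) and LD replicate 3 added alone (9508). With 2 libraries a group and 32.7 M to 38.1 M counts a library, small differences and transcripts near 0 were the least measurable.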

Other observations

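In the nitrogen, iron, gibberellin, brassinosteroid and jasmonate lists the shares called were near or under the 29.9% of all tested genes. Of 10 nitrogen genes, 2 were higher in LD, 1 was lower and 7 did not pass. The nitrate transporter NRT2.3 had 1.78 and 2.53 CPM in LD, against 1.01 and 0.320 CPM in SD (adjusted p = 0.00538, but 0.0812 without LD replicate 2 and 0.182 without SD replicate 2; its log2 fold change of 1.75 was 2.73 without SD replicate 1 and 1.08 without SD replicate 2). The ammonium transporter AMT1;1 was 1.28-fold higher and the plastid glutamine synthetase GS2 1.24-fold lower (adjusted p = 0.0291 and 0.0331), and both were lost without any one library (0.0729 to 0.164 for AMT1;1, 0.0545 to 0.206 for GS2). The nitrate reductase NIA1 and the glutamate synthase Fd-GOGAT did not pass (adjusted p = 0.482 and 0.612). Of 6 iron genes, 1 was lower: IDEF1, a regulator of the iron-deficiency response, had 31.3 and 29.5 CPM in LD, against 40.5 and 45.2 CPM in SD (adjusted p = 0.00563, lost without LD replicate 2 at 0.0594 and SD replicate 2 at 0.0788).

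Of 9 gibberellin genes, EUI1, which inactivates the hormone, was 1.75-fold higher in LD (adjusted p = 0.00889, lost without LD replicate 1 at 0.0695 and SD replicate 2 at 0.137). CPS1, which opens gibberellin synthesis, was 1.54-fold lower (adjusted p = 0.0366, lost without LD replicate 1 at 0.211, LD replicate 2 at 0.0752 and SD replicate 2 at 0.301), and the other 7, the receptor GID1 and the repressor SLR1 among them, did not pass. Of 5 brassinosteroid genes the synthesis enzyme D11 was 2.07-fold lower in LD (adjusted p = 0.0151, lost without LD replicate 2 at 0.115 and SD replicate 2 at 0.104). None of 3 jasmonate genes passed in edgeR's fit of all groups (adjusted p from 0.235 for JAZ8 to 0.456 for AOC), while its fit of the 4 libraries alone called JAZ8 higher (0.0348) and AOS2 lower (0.0196). HSP101, a heat-shock chaperone, was the one called of 3 heat-shock genes (4.54 and 4.04 CPM in LD, against 2.56 and 1.73 CPM in SD, adjusted p = 0.0464, lost without any one library at 0.0578 to 0.324). The energy-sensing kinase SnRK1A was the one called of 2 tested sugar starvation genes, at 1.19-fold (adjusted p = 0.0392, lost without any one library at 0.0988 to 0.189).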
